A study of Homo sapiens with 6 samples.

Results

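The zinc-finger genes described here are those listed in the deposited comparison under a symbol that begins with ZNF, ZFP, ZSCAN or ZKSCAN followed by a digit, without the ZFP36 genes, whose proteins bind RNA. They number 234 of the 7681 listed genes. RNA was sequenced from 6 cultures of HCT116, a human colorectal carcinoma cell line: 3 labelled Rab27B KO, in which RAB27B, a small GTPase gene of vesicle secretion, was targeted with CRISPR/Cas9, and 3 labelled wild type. All were untreated and grown for 48 hours, and the labels do not say whether the knockout cells are 1 clone. The data were the authors' own comparison, with 1 log2 fold change (samples labelled Rab27B KO over wild type) and 1 q-value per gene, and only genes with a q-value below 0.05 were listed.

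Values per sample were not analysed here, so the counts behind a gene, the spread between replicates and the standard error of a fold change are unknown. No test was added to the authors' q-values, and counts over genes are descriptions. The family members that are not listed either missed the threshold or were not measured, which cannot be told apart here. RNA of the targeted gene was higher, not lower, under the knockout label. The samples labelled Rab27B KO had 36.7-fold more RAB27B RNA than wild type (q listed as 0) by the authors' deposited table. RNA alone does not show whether the protein was lost. Every direction below follows the labels. Whether the labels or the direction of the ratio are correct is unknown here. Were either exchanged, every direction below would turn round, with 219 members higher and 15 lower. Of 14 colon epithelium markers 8 were listed. In the authors' deposited table EPCAM, CDH1, CDX2 and HNF4A had log2 fold changes of -1.15, -1.15, -0.75 and -2.97, and KRT8, KRT18, KRT19 and KRT20 had 0.61, 0.47, 0.52 and 2.08. The listed markers were thus split, with 4 lower and 4 higher, and show no common direction. Over all genes, 37.9% of protein-coding genes were listed, and 49.3% of listed genes were lower. What part such genes have in the zinc-finger results was not tested. In bulk RNA, fewer cells of a type and less RNA per cell cannot be told apart.

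C2H2 zinc-finger proteins form the largest class of human transcription factors. Each finger folds around a zinc ion held by cysteines and histidines, and an array of fingers reads a stretch of DNA. Many carry a KRAB box at the amino end, which binds the corepressor TRIM28 (KAP1). TRIM28 brings in the histone methyltransferase SETDB1, HP1 proteins and the NuRD complex, and the best-known targets of this repression are transposable elements and imprinted regions. A SCAN box lets such proteins pair with each other. KRAB zinc-finger genes arose by repeated tandem duplication and lie in large clusters, above all on chromosome 19. Their transcripts are often of low abundance and their sequences alike, so reads can be shared among paralogs and values of single genes are uncertain where the counting split them.

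The family was listed as lower almost throughout. Of the 234 members, 219 were lower and 15 higher in the samples labelled Rab27B KO, so that 93.6% were lower. Of all listed genes 49.3% were lower and 50.7% higher. The median log2 fold change of the members was -0.55, against 0.12 over all listed genes. A log2 fold change of -1 or less was listed for 37 members, or 15.8%, against 6.5% of all listed genes. No member was listed with a log2 fold change of 1 or more, whereas 6.11% of all listed genes were. Most of the falls were moderate: 89 members lay between -1 and -0.5 and 93 between -0.5 and 0. The lower members had a median log2 fold change of -0.58, and the other listed lower genes one of -0.40. At -4 or less stood 5 members (2.14%), against 0.794% of all listed genes, and between -4 and -3 stood 4 (1.71%), against 0.508%.

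**Figure D1:**
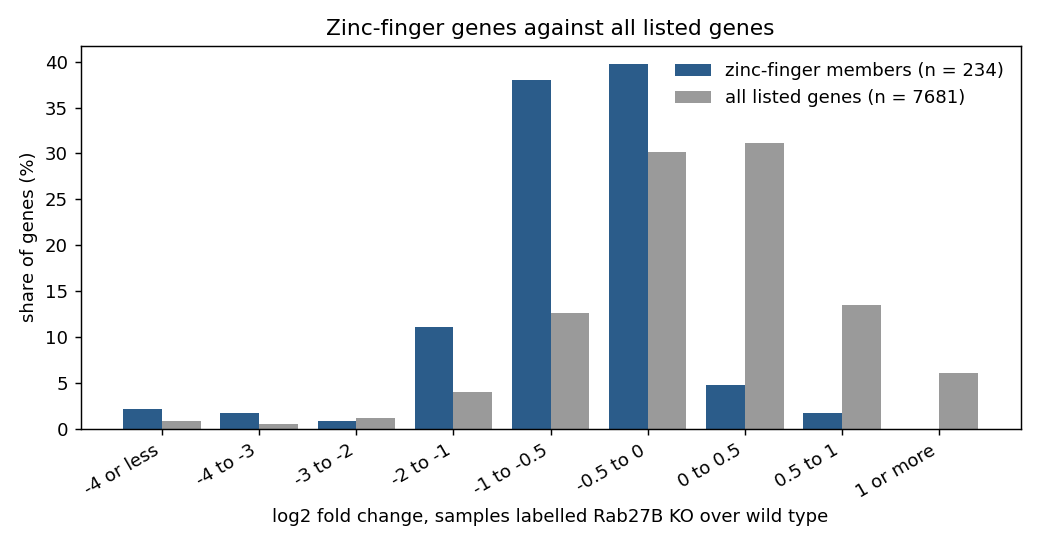
Share of genes (%) in each range of the authors' log2 fold change (samples labelled Rab27B KO over wild type), for the 234 zinc-finger members (blue) and all 7681 listed genes (grey). The members pile up between -1 and 0 and none stands at 1 or more, where 6.11% of all listed genes are.

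How many family genes were listed did not set them far apart from other genes. RefSeq names 563 protein-coding genes that fit the same pattern, and 41.6% of them were listed. Of all protein-coding genes in RefSeq 37.9% were listed. The shares listed were thus closer to each other than the shares lower among listed genes.

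Protein class went along with direction. A KRAB box was found in the translated protein of 129 listed members, and 128 of them were lower, with a median log2 fold change of -0.62. Of the 104 members without a KRAB box 90 were lower, with a median of -0.43. A log2 fold change of -1 or less was reached by 25 of the members with a KRAB box (19.4%) and by 11 of those without one (10.6%). The only higher member with a KRAB box was ZNF473. ZSCAN32, also higher, scored 14 for this box, under the minimum of 15 used, and was counted as without it. Among all family genes with a translated transcript 353 carry the box, of which 36.5% were listed, against 51.5% of the 202 family genes without it. A SCAN box was found in 20 listed members, 19 of them lower, and 7 of these carried both boxes and were all lower. Neither box was found in 91 members, of which 78 were lower. The difference between these classes was not tested.

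**Figure D2:**
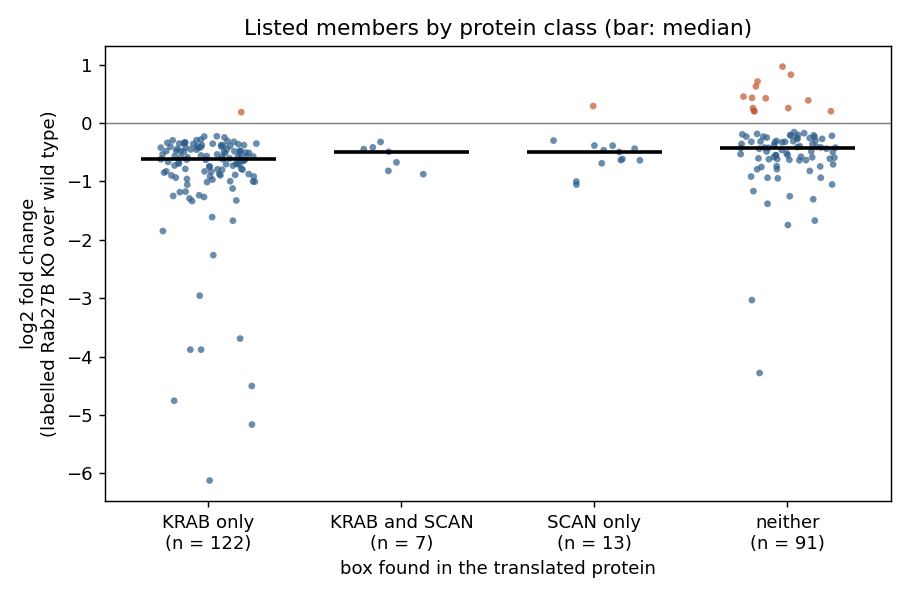
Authors' log2 fold change (vertical axis, samples labelled Rab27B KO over wild type) of each listed member by the box found in its protein. Points are genes (blue lower, orange higher) and bars are medians. Of the 15 higher members 13 have neither box, and the deepest fall, ZNF615 at -6.12, has a KRAB box.

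The number of fingers showed a related pattern. Of 27 members with 0 to 3 fingers 19 were lower, of 52 with 4 to 7 fingers 48, of 69 with 8 to 11 fingers 68, of 44 with 12 to 15 fingers 43, and of 41 with 16 or more fingers 40. The median log2 fold changes of these groups, in the same order, were -0.34, -0.53, -0.61, -0.48 and -0.73. The depth of the falls thus did not grow evenly with the number of fingers. Among members without a KRAB box the counts were 14 of 22 with 0 to 3 fingers, 27 of 31 with 4 to 7, 28 of 29 with 8 to 11, 11 of 12 with 12 to 15 and 10 of 10 with 16 or more. The exceptions to the family's direction were thus most frequent among proteins with few fingers, such as ZNF706, ZNF593 and ZNF804A with 1 finger each.

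Of the 12 deepest falls 9 were KRAB genes of chromosome 19. ZNF615 had a log2 fold change of -6.12 (69.7-fold lower, q = 5.05e-08) and ZNF432, its near neighbour on chromosome 19, one of -4.50 (22.7-fold lower, q = 7.25e-06) by the authors' deposited table. ZNF20 followed at -5.16 (q = 2.86e-04) and ZNF214, a KRAB gene of chromosome 11, at -4.76 (q = 3.29e-12) by the authors' deposited table. ZNF850, which has 29 fingers, and ZNF85 both stood at -3.88 by the authors' deposited table. ZNF550 had -2.96, ZNF675 -2.26 and ZNF100 -1.85 by the authors' deposited table. From ZNF615 to ZNF100, each of these falls is in a gene with a KRAB box. ZNF665 carries the box too, and none was found in ZNF117. ZNF117 (-4.28, q = 0.0183) and ZNF665 (-3.69, q = 0.0369) had q-values near the threshold by the authors' deposited table despite their large fold changes. ZNF117 overlaps the retroviral envelope gene ERV3-1 and their readthrough transcript, and ERV3-1 was lower too, at -1.53 by the authors' deposited table. Reads of these overlapping units cannot be told apart here.

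The falls with the smallest q-values belonged to another kind of member. Of the 8 with the smallest q-values only ZKSCAN1 was called as carrying a KRAB box. ZNF704 was 8.19-fold lower with a q-value listed as 0 by the authors' deposited table, and it has 1 finger. ZNF462, a many-fingered protein whose mutation in humans causes a neurodevelopmental syndrome, was 2.61-fold lower (q = 2.94e-60) by the authors' deposited table. ZNF827, known for bringing the NuRD complex to telomeres, was 2.47-fold lower (q = 1.65e-53) by the authors' deposited table. ZNF711, mutated in X-linked intellectual disability, was 3.36-fold and ZNF608 3.19-fold lower by the authors' deposited table. ZNF629 and ZNF503, the second a corepressor of the NET family with no finger counted, were 1.92-fold lower each by the authors' deposited table. ZKSCAN1, a SCAN and KRAB gene that also gives a well-known circular RNA, was 1.77-fold lower (q = 5.61e-54) by the authors' deposited table. How much of a q-value reflects abundance is unknown here.

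The name classes other than ZNF were small. All 7 listed ZFP genes were lower: the authors' deposited table gave log2 values from -0.79 for ZFP62 to -0.25 for ZFP41. The 3 listed ZKSCAN genes, ZKSCAN1, ZKSCAN8 and ZKSCAN2, had -0.82, -0.64 and -0.44 by the authors' deposited table. Of 6 ZSCAN genes 5 were lower, led by ZSCAN2 at -1.06 and ZSCAN16 at -1.003, whereas ZSCAN32 was 1.22-fold higher (q = 0.00614) by the authors' deposited table. The 218 ZNF genes split into 204 lower and 14 higher.

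Some members with known roles, chosen after their values were seen, show how widely the falls were spread. ZNF91, which restrains SVA retrotransposons in primates, had a log2 fold change of -1.01 by the authors' deposited table. ZNF445, a guardian of imprinted methylation, stood at -0.32 and ZNF350 (ZBRK1), a partner of BRCA1, at -1.18 by the authors' deposited table. ZNF217, an oncogene often amplified in breast and colon tumours, stood at -0.41 by the authors' deposited table. ZNF574, the lower member nearest to 0, had -0.16 (q = 0.0186) by the authors' deposited table.

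Chromosome 19 held 86 of the 234 members, 83 lower and 3 higher. Runs of at least 5 protein-coding family genes with neighbouring starts no more than 500 kb apart numbered 23 in the genome, 10 of them on chromosome 19, and held 123 listed members. Of these 120 were lower and 3 higher, with a median of -0.61. Outside the runs 99 of 111 members were lower, with a median of -0.48. The other genes lying inside the runs, whatever their type, give a neighbour comparison: 41 of them were listed, 22 lower and 19 higher. Of these 41, 22 lay in the run from ZNF48 to ZNF267 on chromosome 16, 11 lower and 11 higher, where all 6 listed members were lower. The 22 lower ones include HKR1, which RefSeq now names ZNF875, and ERV3-1 and its readthrough, which overlap ZNF117. In the 10 runs of chromosome 19 the split was 78 lower and 1 higher for the family, and 8 lower and 6 higher for the genes between them. PLAUR, the urokinase receptor gene, and ADAMTS10 lie in such runs and were picked with their values known. They had log2 fold changes of 2.07 and -1.45 by the authors' deposited table.

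The run from ZNF175 to ZNF331 (GRCh38, chromosome 19, 51571283 to 53580269) held 41 family genes, of which 21 were listed and all were lower. Along the chromosome, ZNF649, ZNF350, ZNF615, ZNF614 and ZNF432 had log2 fold changes of -0.65, -1.18, -6.12, -0.48 and -4.50 by the authors' deposited table. ZNF614 thus lies between the pair with the deepest falls of the run. The remaining 16 listed members of the run lay between -0.30 for ZNF28 and -3.69 for ZNF665 by the authors' deposited table. None of the 14 other protein-coding genes in this run was listed. ZNF761 (-0.39) and its readthrough with ZNF765 (-1.02 by the authors' deposited table) share sequence, so their values are not separate.

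The run from ZNF101 to ZNF254 (GRCh38, chromosome 19, 19668153 to 24129968) held 37 family genes, 12 of them listed and all lower, with a median of -0.93. ZNF85, ZNF675, ZNF100, ZNF708 and ZNF91 had log2 fold changes of -3.88, -2.26, -1.85, -1.34 and -1.01 by the authors' deposited table. The other 7 lay between -0.96 for ZNF493 and -0.63 for ZNF430 by the authors' deposited table. No member of either run was listed as higher.

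**Figure D3:**
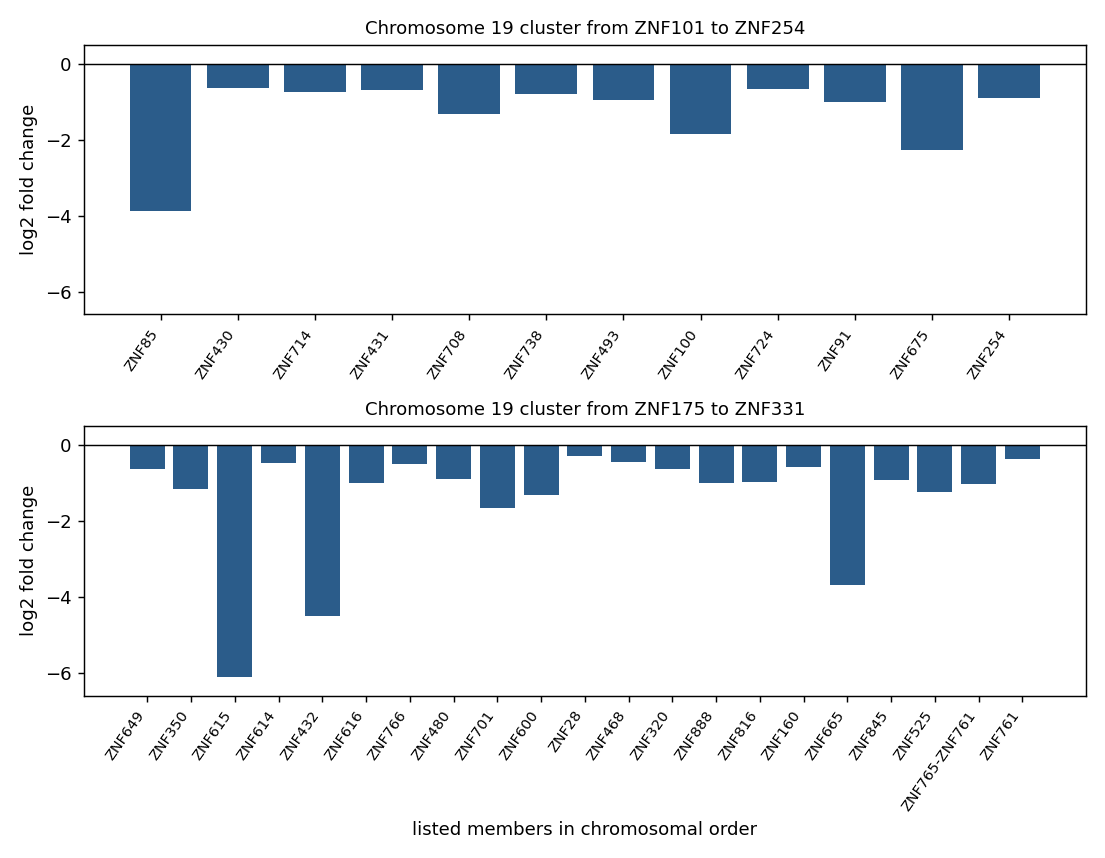
Authors' log2 fold change (vertical axes, samples labelled Rab27B KO over wild type) of each listed member in chromosomal order, for the runs of family genes from ZNF101 to ZNF254 (12 listed members, upper panel) and from ZNF175 to ZNF331 (21 listed members, lower panel). Every bar points down, and neighbours differ in depth, as ZNF615, ZNF614 and ZNF432 show.

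Promoter sequences are shown because members of these runs were all lower, though to different depths. The RefSeq promoter table (GRCh38.p14, 250 bases before to 50 after the start) held windows for 195 of the 234 members. The 3 deepest falls of the run from ZNF101 to ZNF254 are shown first, as paralogs that lie in 1 run. Beside them stand ZNF615, the deepest fall of all, and ZNF467 and ZNF740, which were higher. The window of ZNF467 lies inside the gene, which reaches to 149776530 on chromosome 7, and not at its outer start. The other windows shown lie at the outer start of their genes. Capitals mark the ETS motif CCGGAAG on either strand. The windows are chr19:20923001-20923300 (plus strand) for ZNF85, chr19:21767530-21767829 (minus) for ZNF100, chr19:23687163-23687462 (minus) for ZNF675, chr19:52008162-52008461 (minus) for ZNF615, chr7:149773539-149773838 (minus) for ZNF467 and chr12:53180472-53180771 (plus) for ZNF740.
ZNF85: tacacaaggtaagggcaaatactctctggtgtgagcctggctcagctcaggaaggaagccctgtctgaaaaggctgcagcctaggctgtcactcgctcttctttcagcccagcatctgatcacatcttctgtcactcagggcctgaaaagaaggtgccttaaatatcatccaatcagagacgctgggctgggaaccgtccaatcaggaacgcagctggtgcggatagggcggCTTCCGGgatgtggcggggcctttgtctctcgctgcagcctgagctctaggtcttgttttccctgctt
ZNF100: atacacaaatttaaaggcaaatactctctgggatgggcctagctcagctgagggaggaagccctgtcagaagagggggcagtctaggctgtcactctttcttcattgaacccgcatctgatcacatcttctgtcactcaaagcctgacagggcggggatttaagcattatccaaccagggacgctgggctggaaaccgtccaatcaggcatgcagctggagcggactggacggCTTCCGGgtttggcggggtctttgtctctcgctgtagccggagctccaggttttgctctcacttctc
ZNF675: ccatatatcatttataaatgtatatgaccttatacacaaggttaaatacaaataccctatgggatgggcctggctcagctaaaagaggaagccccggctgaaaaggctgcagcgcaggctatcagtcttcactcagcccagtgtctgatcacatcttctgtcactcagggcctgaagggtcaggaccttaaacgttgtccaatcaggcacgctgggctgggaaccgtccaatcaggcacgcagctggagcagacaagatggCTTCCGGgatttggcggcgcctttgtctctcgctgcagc
ZNF615: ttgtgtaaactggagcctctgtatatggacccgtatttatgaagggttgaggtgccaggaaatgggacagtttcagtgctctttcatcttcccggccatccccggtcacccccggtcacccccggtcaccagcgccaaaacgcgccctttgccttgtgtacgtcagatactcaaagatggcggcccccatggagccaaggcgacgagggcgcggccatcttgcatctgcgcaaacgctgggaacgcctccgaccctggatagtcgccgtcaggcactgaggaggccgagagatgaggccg
ZNF467: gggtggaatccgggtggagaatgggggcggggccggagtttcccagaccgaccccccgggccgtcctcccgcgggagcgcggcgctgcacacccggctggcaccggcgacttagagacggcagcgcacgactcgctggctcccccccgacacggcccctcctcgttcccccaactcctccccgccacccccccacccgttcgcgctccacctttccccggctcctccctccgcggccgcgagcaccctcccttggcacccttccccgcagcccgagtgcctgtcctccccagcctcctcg
ZNF740: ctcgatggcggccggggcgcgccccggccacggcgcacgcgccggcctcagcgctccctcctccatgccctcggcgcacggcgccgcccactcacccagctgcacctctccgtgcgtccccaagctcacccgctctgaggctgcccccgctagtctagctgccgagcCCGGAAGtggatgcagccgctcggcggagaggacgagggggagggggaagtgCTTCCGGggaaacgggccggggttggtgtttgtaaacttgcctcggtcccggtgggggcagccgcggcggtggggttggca

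The windows of ZNF85, ZNF100 and ZNF675 matched each other at 82.9% to 85.0% of their aligned bases, and each holds 1 ETS motif. Any other pair of the 6 windows matched at 59.9% to 73.5%. The window of ZNF615 holds no ETS motif and that of ZNF740 holds 2, so the motif did not separate these examples by direction. Over the family, 40.0% of the windows of lower members (74 of 185) and 40.0% of those of higher members (4 of 10) held it. It stood in 14.2% of all 15843 protein-coding promoters and in 17.3% of those of the other listed genes. It stood in 46.4% of the windows of members with a KRAB box, in 31.0% of those of members without one, and in 39.6% of those of family genes that were not listed. Among members with a KRAB box, the 51 with the motif had a median log2 fold change of -0.75 and the 59 without it one of -0.51. Members without a KRAB box showed no such gap, with -0.42 for the 26 with the motif and -0.43 for the 58 without it. Of the 11 windows from the run from ZNF101 to ZNF254, 10 held it. A match is a description of letters, not a binding site, and windows of paralogs are alike and so not independent.

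Of the 8 other motifs searched on both strands, none overlapped a CCGGAAG match in a member's window. The GC box GGGCGG stood in 61.1% of the windows of lower members, 70.0% of those of higher members and 58.5% of all promoters. The CCAAT box (CCAAT) stood in 43.8%, 40.0% and 36.4% of the same sets. The NRF1 motif GCGCNTGCG stood in 14.1% of the windows of lower members, 1 of 10 of higher members and 1736 of all 15843 promoters. The E-box CACGTG stood in 5.41%, 2 of 10 and 8.88% of these sets, and the CRE motif TGACGTNA in 4.32%, 1 of 10 and 3.91%. The AP-1 motif TGANTCA stood in 5.41% of the windows of lower members and 5.75% of all promoters, the YY1 motif AAGATGGCG in 4.32% and 2.74%, and the TATA box TATAAA in 3.78% and 9.63%, and no window of a higher member held any of these. The higher members had only 10 windows, so 1 gene moves their shares by much.

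The share lower differed between members and the other listed genes of their chromosomes. On chromosome 19, 96.5% of the members were lower, against 31.9% of the 483 other listed genes there, whose median log2 fold change was 0.29. On each of the 21 chromosomes with a listed member, the share of members that were lower was above that of the other listed genes. On chromosomes 4, 7, 11 and 15 most other listed genes were lower too, at 83.0%, 65.4%, 52.1% and 79.5%. Of the members there, 4 of 4, 20 of 21, 4 of 4 and 8 of 8 were lower. Chromosome 13, on which 86.5% of listed genes were lower, held no listed member. The lowest share among the 14 chromosomes with at least 5 members was on chromosome 12, with 4 lower and 2 higher.

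**Figure D4:**
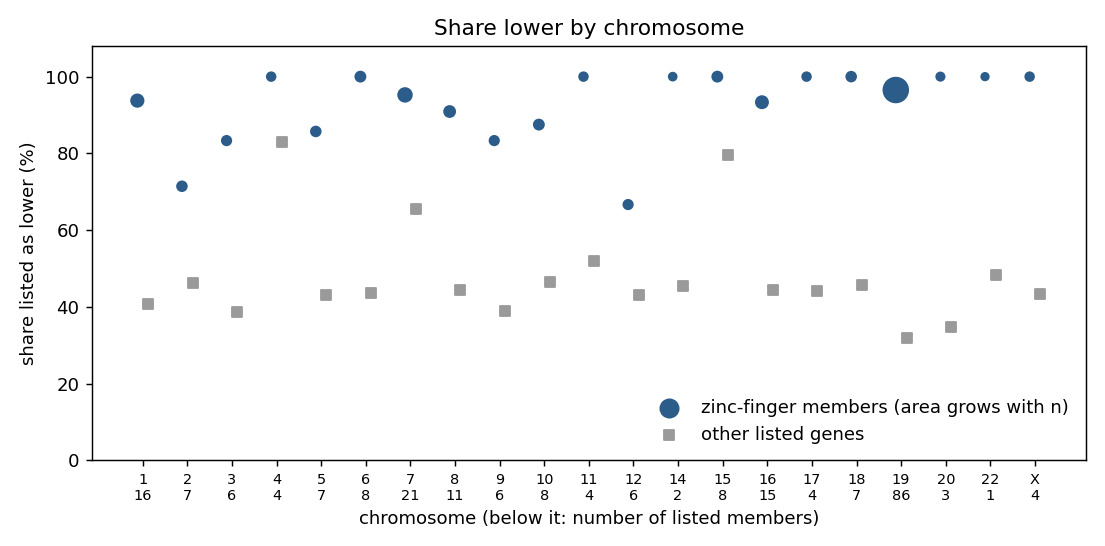
Share of listed genes that were lower (%, vertical axis) on each chromosome with a listed member, for zinc-finger members (blue, area grows with their number) and for the other listed genes (grey squares). The blue point is above the grey square on all 21 chromosomes, and the gap on chromosome 19 is between 96.5% and 31.9%.

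Transcript length and GC content also went with direction in these tables. The longest protein-coding transcript had a median length of 4324 bases for the lower members and 3173 for the higher ones, and a median GC content of 43.3% for the lower and 53.2% for the higher ones. The other listed lower genes had medians of 4285 bases and 48.3%. Listed genes were cut into 4 equal bins by transcript length. In the bin with the longest transcripts (5388 bases or more) 71 of 73 members were lower (97.3%), against 66.7% of the other genes. In the bin with the shortest (under 2212 bases) 13 of 17 members were lower (76.5%), against 27.2% of the other genes. Members were lower more often than other genes in every bin of length and of GC content. Where transcripts were both longer than the median of 3519 bases and below the median GC content of 50.4%, 115 of 119 members were lower, against 61.9% of 2270 other genes. The medians there were -0.59 for the members and -0.23 for the others. Members with a KRAB box were all lower in every length bin but the third, where 50 of 51 were. What length and GC content contribute was not tested.

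**Figure D5:**
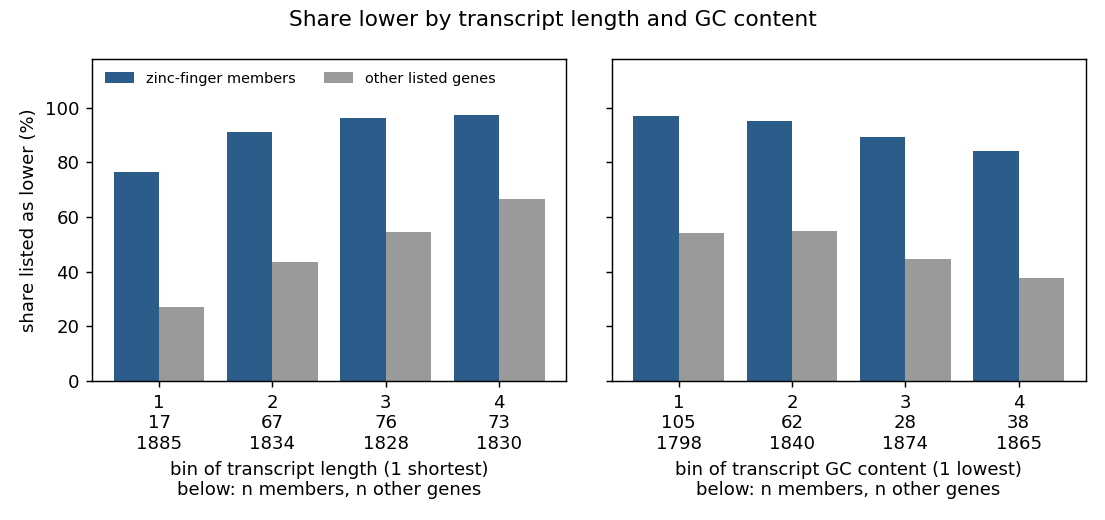
Share of listed genes that were lower (%, vertical axes) in 4 bins of longest-transcript length (left) and of its GC content (right), with equal bins set over all listed genes. Blue bars are zinc-finger members and grey bars other listed genes. The blue bar is the higher one in all bins, with 76.5% against 27.2% for the shortest transcripts and 97.3% against 66.7% for the longest.

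The 15 members that went against the family rose little. Of these, 13 have neither a KRAB nor a SCAN box and 8 have 0 to 3 fingers. Among the 219 lower members these counts were 78 and 19. ZNF467, a factor that promotes fat cell formation in mice, was 1.95-fold higher (q = 1.43e-21) by the authors' deposited table, the largest rise among the members. It lies on chromosome 7 in a run of 10 family genes from ZNF786 to ZNF862, all listed, of which the other 9 were lower. ZNF804A, known from schizophrenia genetics, was 1.77-fold higher (q = 6.09e-05) by the authors' deposited table. ZNF385A, which binds p53 and steers its choice of targets, was 1.64-fold higher with the smallest q-value of the 15 (1.14e-51) by the authors' deposited table. ZNF385C, of the same small family and picked with its value known, was 2.25-fold lower (q = 0.00308) by the authors' deposited table. ZNF575 was 1.54-fold, ZNF488 1.37-fold, ZNF367 1.35-fold and ZNF740 1.34-fold higher by the authors' deposited table. ZNF654 was 1.31-fold higher by the authors' deposited table.

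Among the smaller rises, ZNF593, ZNF622 and ZNF473 encode proteins known for work on ribosomes or RNA, a grouping made with the values known. The 219 lower members were not sorted by such roles, and some may have them too. Whether such genes are more frequent among the rises than among the falls was not tested. ZNF593 and ZNF622 are related to yeast factors of large ribosomal subunit maturation, and had log2 fold changes of 0.25 and 0.20 by the authors' deposited table. ZNF473 (ZFP100) is a component of histone pre-mRNA processing with the U7 particle, and stood at 0.19 (q = 0.0388) by the authors' deposited table, the rise nearest to 0. ZNF706, a small protein with 1 finger, had 0.25, ZNF513 0.21 and ZNF296 0.20 by the authors' deposited table. ZNF622, ZNF296 and ZNF513 had q-values of 0.0462, 0.0451 and 0.0457 by the authors' deposited table, close to the threshold. Of the 15, 6 had a q-value below 0.001 (40%), against 159 of the 219 lower members (72.6%). Over all listed genes, 71.0% of the higher and 69.0% of the lower ones had a q-value below 0.001. ZNF622 and ZNF296 were named with their values known.

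Listed genes of the corepressor pathway were mostly lower too, with smaller changes. Over all genes, 37.9% of protein-coding genes were listed, and 49.3% of listed genes were lower. Of 16 genes of the TRIM28 and SETDB1 axis 10 were listed, all lower, with a median log2 fold change of -0.33. CBX5, which encodes HP1 alpha, was 2.01-fold lower (q = 5.21e-105) by the authors' deposited table. The other HP1 genes, CBX3 and CBX1, stood at log2 values of -0.49 and -0.33, and SMARCAD1, a remodeller that works with TRIM28, at -0.66 by the authors' deposited table. TRIM28 and SETDB1, named with their values known, stood at -0.10 (q = 0.00801) and -0.33 by the authors' deposited table. The HUSH complex silences transposable elements with SETDB1, and 3 of its 4 genes were listed: MORC2 at -0.36, MPHOSPH8 at -0.33 and PPHLN1 at 0.15 by the authors' deposited table.

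Of 13 NuRD genes 12 were listed, 10 lower and 2 higher, with a median of -0.30. The remodelling ATPase genes CHD3 and CHD4 stood at -0.59 and -0.53, and MTA2, RBBP4, MBD3 and HDAC2 at -0.47, -0.46, -0.37 and -0.36 by the authors' deposited table. GATAD2B, GATAD2A, MTA1 and MTA3 stood at -0.25, -0.24, -0.23 and -0.22, whereas HDAC1 and MBD2 stood at 0.28 and 0.42 by the authors' deposited table. Among DNA methylation genes, the demethylating enzyme genes TET3 and TET2 stood at -0.998 and -0.82 and the maintenance factors DNMT1 and UHRF1 at -0.26 and -0.24 by the authors' deposited table. The methyl-CpG readers ZBTB38 and ZBTB33 stood at -0.42 and -0.39, and their relative ZBTB4 and the reader MBD2 at 0.15 and 0.42, by the authors' deposited table. Of 11 other genes that write, erase or assist H3K9 methylation 8 were listed, 7 lower and 1 higher. KDM3B, SUV39H2, EHMT2 and WIZ stood at -0.62, -0.45, -0.31 and -0.26, EHMT1, KDM1A and KDM4A at -0.22, -0.21 and -0.13, and KDM4C at 0.30 by the authors' deposited table.

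Other C2H2 families give the nearest comparison. Of 41 ZBTB factors, which carry a BTB box in place of KRAB, 24 were listed, 20 lower and 4 higher, with a median log2 fold change of -0.43. ZBTB12, ZBTB2, ZBTB40 and ZBTB39, with the smallest q-values, stood at -1.14, -0.62, -0.54 and -0.53 by the authors' deposited table. Of 26 KLF and SP factors 15 were listed, 6 lower and 9 higher, with a median of 0.20, and KLF4, KLF2 and KLF6 stood at 2.17, 1.27 and 0.56 and SP1 at -0.38 by the authors' deposited table. Of 43 other C2H2 factors, such as CTCF, GLI and EGR genes, 23 were listed, 13 lower and 10 higher, with a median of -0.27. ZEB1, a repressor of epithelial genes, stood at 2.74, and GLIS3, PATZ1 and MAZ at -2.45, -0.76 and -0.36 by the authors' deposited table. The share lower was thus 93.6% in the ZNF, ZFP and SCAN genes, 83.3% in the ZBTB, 56.5% in the mixed C2H2 and 40.0% in the KLF and SP genes, against 49.3% of all listed genes. This order too would turn round if the labels or the ratio were exchanged. The 3 ZFP36 genes left out by name were split, with ZFP36L2 and ZFP36L1 at -1.04 and -0.57 and ZFP36 at 0.34 by the authors' deposited table. None of the 4 SCAN genes with other names (SCAND1, MZF1, PEG3 and PGBD1) was listed. The differences between these families were not tested.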

How the data were processed

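RNA sequencing of 3 HCT116 cultures labelled Rab27B KO and 3 labelled wild type was grouped by sample titles. Per the labels' protocols, RNA was purified on columns and sequenced on DNBSEQ. HISAT, Bowtie2 and the build GRCh38 stand in the submitters' processing notes. Their roles, and the counting, scaling and test, are not given in those notes. Per the file headers, the authors deposited a log2 ratio between genotypes and a q-value for each gene, and for higher genes the linear ratio too. Depth per sample is unknown.

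Because no values per sample were present, the planned count tests gave way to the authors' q-values at 0.05, and 0 unmapped sample columns were found. Members and lists were chosen with earlier results of these data known. Folds were computed as 2 to the power of the log2 value. IDs were matched to RefSeq (GRCh38.p14), all 234 members among them. Lengths, GC content, fingers and boxes came from GENCODE 29 transcripts, translated for 233 members. These took the place of the RefSeq proteins foreseen. KRAB boxes needed a score of 15 of 27 scored positions and SCAN boxes 14 of 23 scored positions, and SCAN genes with a divergent KRAB box, such as ZKSCAN8, can be missed. Where a gene had several promoter windows, the first was used. The steps were tested on simulated data. Named were the 12 largest falls and rises, the 8 smallest q-values in each direction, the extremes of the ZFP, ZSCAN and ZKSCAN classes, the members nearest to 0, all listed genes of lists of up to 15 genes and 4 of longer ones. A gene of the DNA methylation list is not reported here, for a reason unrelated to its value, so no count is given for that list. Further members were picked with values known or as members of the 2 runs described. Python 3.11.15, pandas 2.3.3 and matplotlib 3.10.9 were used.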

Additional observations from a re-analysis of the deposited data

How the results depend on the processing

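The family's direction held under every alternative run. The share of members lower was 93.6%, and 94.5%, 93.6%, 93.6%, 93.0% and 91.9% at a q-value below 0.01, with RefSeq symbols, without the readthrough name, without chromosomes 4, 7, 13 and 15, and without chromosome 19. It was 96.4% at a q-value below 0.001, with 6 members higher and a median log2 fold change of -0.63. At a log2 change of at least 1 it was 100%, with 37 lower and 0 higher, a median of -1.33, and 100% with and 100% without a KRAB box. Fewer genes remain there by construction. Without chromosome 19, 136 members were lower, the median was -0.49 and 100% of members with a KRAB box were lower, since ZNF473 lies there. At q-values below 0.01 and 0.001 that share was also 100%. With KRAB score minimums of 13 and 20, chosen after seeing the data, it was 98.5% and 99.2%. The minimum of 13 brings in ZSCAN32, which was higher. No paired analysis was possible because the tables hold no values per sample, and leaving out replicates was not run for the same reason. Unknown depth limits all folds of weakly expressed members.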

Other observations

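HKR1, a gene of chromosome 19 that RefSeq now names ZNF875 and that the name pattern therefore missed, was 1.49-fold lower (q = 1.91e-04) by the authors' deposited table. It is the only listed gene that the current symbols add to the family. The readthrough of ERV3-1 with ZNF117 stood at a log2 value of -1.18 (q = 2.90e-04) by the authors' deposited table, beside -1.53 for ERV3-1 and -4.28 for ZNF117.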
